A study of Mus musculus with 12 samples.

Results

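Polycomb and trithorax proteins are opposing regulators of gene activity, and expression of 9 of their genes was examined here: Ezh1, Ezh2, Eed, Suz12, Bmi1, Rnf2, Cbx7, Kmt2a and Kmt2d. The 9 were taken by gene symbol from the 41128 genes of the deposited table, and all 9 were found. RNA was sequenced from splenic lymphocytes of untreated C57BL/6J mice at an age of 6 to 8 weeks, in 4 groups of 3 libraries (12 in all). These are CD43- resting B cells of females and of males, and naive CD4+ CD62L+ T cells of females and of males. The naive T cells were enriched magnetically and then sorted for high CD62L, low CD44 and absence of CD25. The series describes pooled mice, and p-values here therefore measure how pools, not single animals, differ.

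Polycomb repressive complex 2 (PRC2) places methyl groups on lysine 27 of histone H3, a mark of silent genes. Its catalytic subunit is EZH1 or EZH2, its EED subunit reads the finished mark, and SUZ12 holds the complex together. Canonical Polycomb repressive complex 1 (PRC1) recognises that mark through a CBX protein and ubiquitinates histone H2A through a RING1 protein paired with a PCGF protein. The trithorax side is represented by KMT2A, which methylates lysine 4 of histone H3 mostly at promoters, and KMT2D, which does so mostly at enhancers. In lymphocytes EZH2 is best known from dividing cells such as germinal centre B cells, whereas EZH1 is the form typical of resting cells.

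Expression was given as adjusted TPM, by its name a level per transcript length, rescaled between libraries by the authors. How it was adjusted is not given in the sources used here, so comparisons of level between genes rest on that name. Summed over all genes, adjusted TPM ranged from 561020 to 1453940 per library, and the single highest gene of a library, Rn7sk or Yam1, took 11.4% to 37.4% of that sum. The number of sequenced reads is unknown. Marker genes followed the labels: the summed level of 4 B cell genes (Cd79a, Cd79b, Ms4a1 and Pax5) was 2220 to 2643 in B cells but 0.896 to 4.91 in T cells, and that of 5 T cell genes (Cd3d, Cd3e, Cd4, Lck and Tcf7) was 1017 to 1194 in T cells and 9.76 to 14.1 in B cells. Markers of other cells (Lyz2, Cd68, Sdc1, Hbb-bs, Nkg7 and S100a8) were also summed. Their sum spanned 14.4 to 171 over B cell libraries, and for T cells 3.01 to 35.0. Sdc1 lay at 5.48 to 6.82 in B cells and Lyz2 at 6.82 to 11.1. The highest T cell values of this pair were 0.00545 and 2.52. Hbb-bs ran from 0.210 to 154 among B cells, highest in male library 1, and from 1.51 to 32.3 among T cells. The part of other cells in the results was not tested. In such bulk libraries, fewer cells of a type and less RNA per cell cannot be told apart.

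All 9 genes were expressed in every library, at moderate to high levels. Mean adjusted TPM over the 12 libraries ran from 16.1 for Ezh2 to 61.1 for Suz12, above 60.4% and 90.8% of the 12520 genes tested, respectively. In B cells the order of mean levels was Cbx7, Suz12, Rnf2, Bmi1, Eed, Kmt2a, Ezh1, Kmt2d and Ezh2. In T cells Suz12 came first, followed by Rnf2, Cbx7, Bmi1, Ezh1, Eed, Kmt2a, Kmt2d and Ezh2. Cbx7 thus led in B cells and came behind Suz12 and Rnf2 in T cells, while Ezh2 was last in both.

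**Figure D1:**
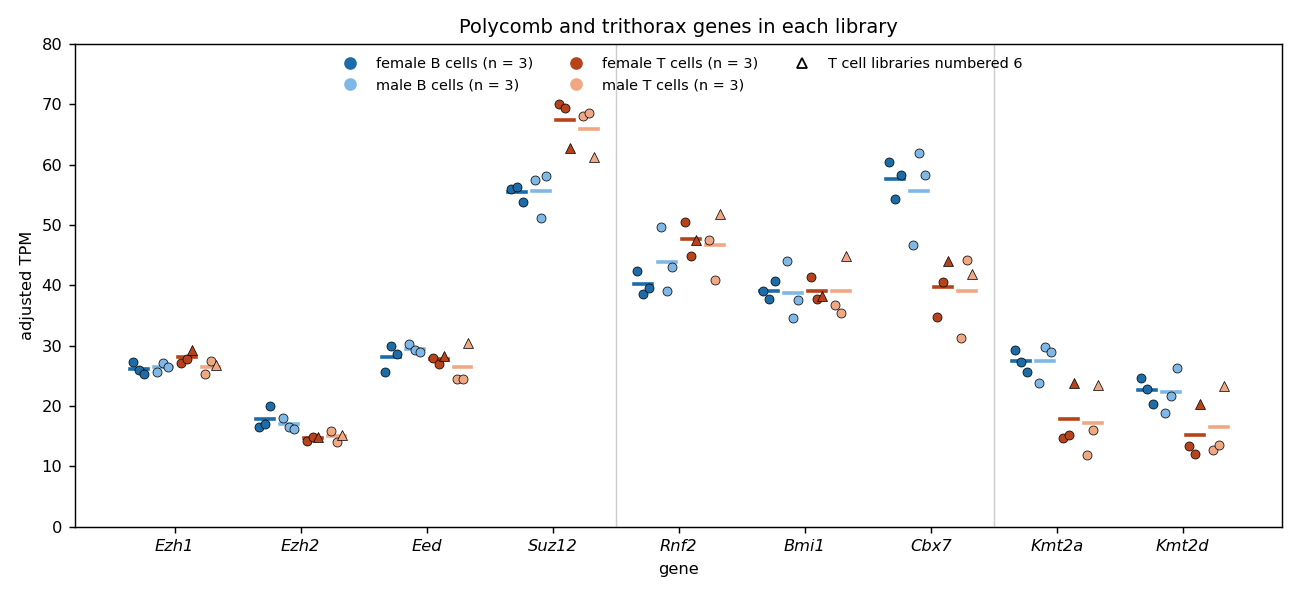
Adjusted TPM (y axis) of the 9 genes (x axis) in each of the 12 libraries, with PRC2, PRC1 and trithorax genes separated by vertical lines. Points are libraries, bars are means of the 3 libraries of a group, and triangles mark the T cell libraries numbered 6. Cbx7 was higher and Suz12 lower in all 6 B cell libraries than in any T cell library, and Kmt2a and Kmt2d were highest among T cells in both libraries numbered 6.

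The first question of the design is which genes differ between B and T cells. Of the 9 genes, 5 passed the test, with Cbx7, Kmt2a, Kmt2d and Ezh2 higher in B cells and Suz12 higher in T cells. This share, 55.6%, is below the 73.0% of all tested genes that passed under the authors' scaling (limma with Benjamini-Hochberg adjustment, adjusted p under 0.05). The 4 higher in B cells compare with 31.4% of all genes called in that direction, and the 1 higher in T cells with 41.6%. Libraries of the cell types did not overlap for 3 of the 9, namely Cbx7, Ezh2 and Suz12, against 53.9% of all genes. The median log2 fold change of the 9, B minus T cells, was 0.09, and that of all tested genes was −0.09.

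The scaling between libraries bears on these directions. When every library was rescaled to an equal total, the median over all genes moved up by 0.35 on the log2 scale, and the calls higher in B cells changed from 3926 to 5087 and those higher in T cells from 5208 to 2021. Relative to the median of all genes, Suz12 lay at −0.17 under the authors' scaling and at −0.14 under equal totals, and Cbx7 at 0.60 and 0.63. Relative to the other genes the positions of the 9 thus moved little, whereas the signs of Ezh1, Suz12, Bmi1 and Rnf2 differed between scalings. Under equal totals all 5 calls among the 9 were toward B cells and 0 toward T cells, since Suz12 no longer passed and Eed did. These 5 of the 9 (55.6%) stood beside 7108 of 13016 genes that passed, so their share was then not below that of all genes. T cell libraries of the same number deviated together across genes, so the test was also run with the libraries of each number averaged over the sexes, an alternative added after the values were seen. The same 5 genes passed, with adjusted p from 0.0016 for Cbx7 to 0.024 for Ezh2 (limma).

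**Figure D2:**
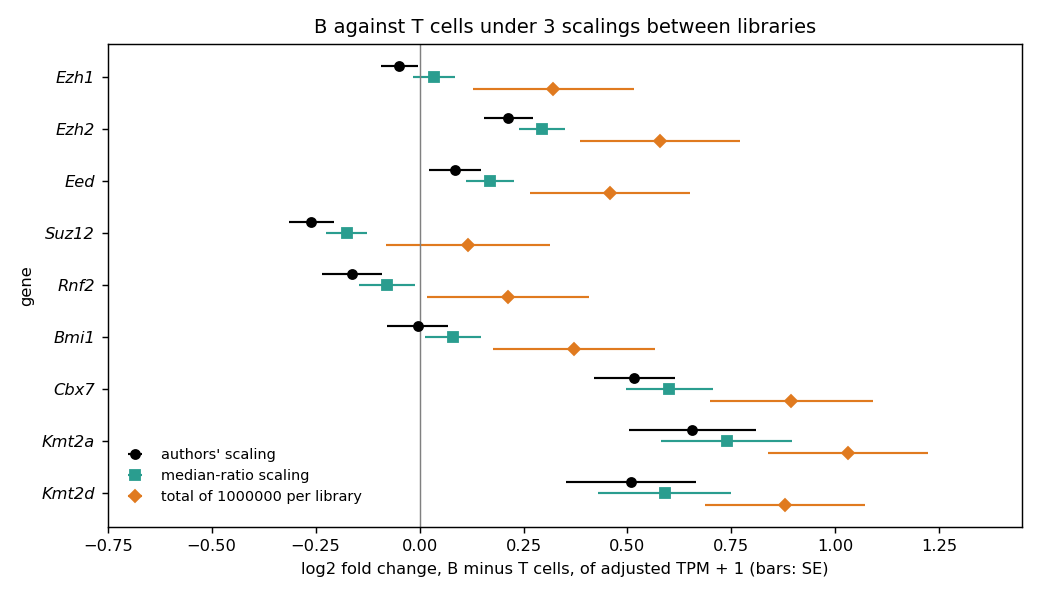
Log2 fold change of adjusted TPM + 1, B minus T cells (x axis), for each of the 9 genes (y axis) under the authors' scaling, median-ratio scaling and equal library totals. Points are limma estimates and bars their standard errors over 12 libraries. Cbx7, Kmt2a, Kmt2d and Ezh2 lay above 0 under all 3, and Suz12 changed from −0.26 under the authors' scaling to 0.12 under equal totals.

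The letters upstream of the 5 genes that passed the test are shown so that the start sites behind these values can be compared. RefSeq start sites (GRCm38.p6) were matched for all 9 genes, and the 250 bases before each were searched on both strands for CCAAT (the CCAAT box), GGGCGG (the GC box), TTTNNCGC (a loose form of the E2F motif), CACGTG (the E-box) and TATAAA (the TATA box). Matches are in capitals below, and only the longest stretch outside exons annotated by GENCODE M21 is printed, 5′ to 3′ on the strand of the gene. Ezh2 (chr6:47595059-47595183, − strand) held CCAAT at 3 places in its whole window, some of them outside the printed stretch. Its RefSeq start lies inside the gene that GENCODE annotates, and 125 of the 250 bases of its window lie in annotated exons. Suz12 (chr11:79992856-79993105, + strand) held GGGCGG 3 times and also held CCAAT and TTTNNCGC. Cbx7 (chr15:79932769-79932896, − strand) held CCAAT and GGGCGG, and its RefSeq start lies inside the longer gene that GENCODE annotates. Kmt2a (chr9:44881297-44881539, − strand) and Kmt2d (chr15:98871206-98871455, − strand) each held GGGCGG 4 times and no CCAAT.
Ezh2 upstream stretch: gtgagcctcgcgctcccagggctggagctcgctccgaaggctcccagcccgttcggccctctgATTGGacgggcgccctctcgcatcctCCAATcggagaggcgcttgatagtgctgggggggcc
Suz12 upstream stretch: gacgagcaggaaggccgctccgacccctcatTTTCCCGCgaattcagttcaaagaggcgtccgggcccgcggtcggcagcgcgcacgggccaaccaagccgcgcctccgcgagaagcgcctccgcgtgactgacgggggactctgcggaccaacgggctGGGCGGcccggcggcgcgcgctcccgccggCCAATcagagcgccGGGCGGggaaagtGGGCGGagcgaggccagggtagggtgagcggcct
Cbx7 upstream stretch: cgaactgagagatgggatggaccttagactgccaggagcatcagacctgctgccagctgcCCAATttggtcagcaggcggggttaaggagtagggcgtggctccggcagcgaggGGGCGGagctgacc
Kmt2a upstream stretch: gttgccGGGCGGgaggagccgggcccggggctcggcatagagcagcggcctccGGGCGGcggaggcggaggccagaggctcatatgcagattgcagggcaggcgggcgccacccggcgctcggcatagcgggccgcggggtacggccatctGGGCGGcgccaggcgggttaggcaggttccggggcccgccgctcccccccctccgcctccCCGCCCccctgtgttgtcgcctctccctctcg
Kmt2d upstream stretch: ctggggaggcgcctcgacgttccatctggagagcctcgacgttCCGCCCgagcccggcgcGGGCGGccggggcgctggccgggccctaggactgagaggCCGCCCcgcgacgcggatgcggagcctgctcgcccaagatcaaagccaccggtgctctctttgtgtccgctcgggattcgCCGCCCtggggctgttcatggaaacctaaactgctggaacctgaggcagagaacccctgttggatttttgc

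Over the 9 genes, GGGCGG was present in 6 windows, CCAAT in 3, TTTNNCGC in 1 (Suz12) and CACGTG in 1 (Bmi1), while TATAAA was in 0. Among the 32851 RefSeq windows of the same 250 bases, 32.7% held GGGCGG, 33.8% CCAAT, 4.28% TTTNNCGC, 6.02% CACGTG and 12.4% TATAAA. The windows of the 9 genes held 12 (Eed) to 37 (Suz12) CG dinucleotides, against a median of 6 over all windows. Such matches describe letters only.

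The catalytic subunits of PRC2 differed in how their transcript levels compared between the cell types. Ezh1 (chr11:101191115-101226463 in GRCm38, − strand) was the steadiest of the 9 genes, at 25.4 to 27.3 adjusted TPM in B cells with a median of 26.3, and at 25.2 to 29.3 in T cells with a median of 27.3. Its log2 fold change was −0.05 ± 0.05 (SE; adjusted p = 0.35, limma; 95% interval −0.15 to 0.05). Its ranges overlapped fully and its level could not be separated between the cell types.

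Ezh2 (chr6:47530139-47595341, − strand) was at 16.6, 16.99 and 20.05 adjusted TPM in female B cells and at 18.1, 16.6 and 16.2 in male B cells. In T cells it was at 14.2, 14.9 and 14.9 in females and at 15.8, 14.0 and 15.3 in males. Every B cell library was above every T cell library, although the lowest and highest were close together. The change by limma was 0.21 ± 0.06 on the log2 scale (SE; adjusted p = 0.0059), a ratio of means of 1.17.

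Ezh1 exceeded Ezh2 in 12 of 12 libraries, by a ratio of 1.27 to 1.97. The share of Ezh2 in the sum of both was 39.8% ± 2.55 (SD, n = 6) in B cells, against 35.3% ± 1.84 (SD, n = 6) in T cells. The difference of 4.49 percentage points passed an exact two-sided permutation test over libraries (p = 0.0087, adjusted p = 0.01 over the 6 shares compared), with ranges that overlapped. A share within a library does not depend on the scaling between libraries. With T cell libraries averaged by number, each of the 5 shares that passed did so at the smallest p that 6 against 3 values allow (exact permutation p = 0.024, adjusted p = 0.029).

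Cell cycle genes were examined beside Ezh2. Top2a and Mcm5 were higher in B cells, with log2 fold changes of 2.21 and 0.76, and Pcna, the sliding clamp of DNA replication, was higher in T cells (−0.72), each at an adjusted p of at most 5.3e-05 (limma). Under equal library totals Pcna no longer passed. Mki67, Cdk1 and Ccnb1 were below 1 adjusted TPM in all T cell libraries and entered the test through B cells alone, so that their log2 fold changes of 2.99, 1.96 and 1.602 are descriptions. The summed level of the 6 genes was 113 to 166 in B cells and 138 to 197 in T cells. Without Pcna it was 38.8 to 70.0 and 13.9 to 15.1. Their part in the Ezh2 result was not tested.

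Of the scaffold and reader subunits of PRC2, Suz12 passed the test and Eed did not. Suz12 (chr11:79993106-80034123, + strand) was at 56.0, 56.4 and 53.9 adjusted TPM in female B cells and at 57.5, 51.2 and 58.1 in male B cells. In T cells it was at 70.1, 69.4 and 62.8 in females and at 68.1, 68.5 and 61.3 in males. All T cell libraries were above all B cell libraries, and the T cell libraries numbered 6 were the lowest of their cell type in each sex. The log2 fold change was −0.26 ± 0.05 (SE; adjusted p = 0.00084, limma), a T to B ratio of means of 1.202, but its sign turned under equal library totals (0.12 ± 0.20, adjusted p = 0.64).

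Eed (chr7:89954654-89980983, − strand) ranged from 25.7 to 30.2 adjusted TPM in B cells with a median of 29.1, and from 24.5 to 30.4 in T cells with a median of 27.5. Its log2 fold change of 0.09 ± 0.06 (SE; adjusted p = 0.23, limma; 95% interval −0.05 to 0.22) did not pass. Without the male T cell library 6, the highest of the T cells at 30.4, it passed at 0.14 (adjusted p = 0.031), as it did under median-ratio scaling (0.17, adjusted p = 0.02) and under equal totals (0.46, adjusted p = 0.034). Levels of Eed thus stayed near those of Ezh1, with means of 28.8 and 26.4 in B cells, and well under the 55.5 of Suz12. GENCODE lists E230029C05Rik on the opposite strand and Gm45120 on the same strand over Eed, and how the authors assigned such reads is not given in the sources used here.

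Of 8 PRC2 partner genes, 6 reached 1 adjusted TPM in both cell types, and 4 of these passed, with 1 higher in B and 3 higher in T cells. Their share, 66.7%, stands beside 73.0% of all tested genes, which include genes reaching the filter through 1 cell type alone. Under equal library totals 1 and 1 remained past the threshold, beside 5087 and 2021 of 13016 genes in these directions. Jarid2, a recruiting subunit, was at 43.9 adjusted TPM in B cells against 27.1 in T cells (log2 fold change 0.68 ± 0.06, SE). In the other direction, Aebp2, which stabilises a form of PRC2, was at 38.0 in B cells and 69.4 in T cells (−0.85 ± 0.05). Both passed with an adjusted p of at most 4.1e-07 (limma), and the libraries of the cell types did not overlap. Phf19, a Polycomb-like protein that helps PRC2 bind chromatin, reached the filter through B cells alone and Epop through T cells alone, so that their values are descriptions. The mean of Phf19 was 3.204 in B cells against 0.809 in T cells. For Epop these means were 0.790 and 2.19. JARID2 and AEBP2 occur together in one form of PRC2, yet their transcripts changed in opposite directions.

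Among the PRC1 genes Cbx7, Bmi1 and Rnf2, Cbx7 differed most between the cell types. Cbx7 (chr15:79915807-79971119, − strand), whose product reads the PRC2 mark, was at 60.4, 54.3 and 58.3 adjusted TPM in female B cells and at 46.8, 62.0 and 58.2 in male B cells. In T cells it was at 34.8, 40.6 and 44.0 in females and at 31.3, 44.2 and 41.8 in males. The groups of B and T cells did not overlap, with the male B cell library 1 the nearest to T cells. By limma the log2 fold change was 0.52 ± 0.10 (SE; adjusted p = 0.00038), a ratio of means of 1.44. GENCODE lists Apobec3 over part of Cbx7 on the opposite strand. It also lists genes of the same strand over Rnf2 (Gm36527) and Kmt2a (Gm48314), and genes of the opposite strand over Ezh2, Suz12, Rnf2 and Kmt2a.

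Cbx7 is 1 of 5 Polycomb CBX genes, whose products compete for the same place in the complex. Cbx7 made up 67.7% ± 3.61 (SD, n = 6) of their summed level in B cells but 42.0% ± 4.61 (SD, n = 6) in T cells. The difference of 25.7 percentage points passed the exact permutation test at the smallest p that 6 against 6 libraries allow (p = 0.0022, adjusted p = 0.0043), and the ranges, 61.5% to 71.8% and 34.9% to 47.4%, were apart. Cbx7 thus made up most of the sum in every B cell library and in no T cell library.

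**Figure D3:**
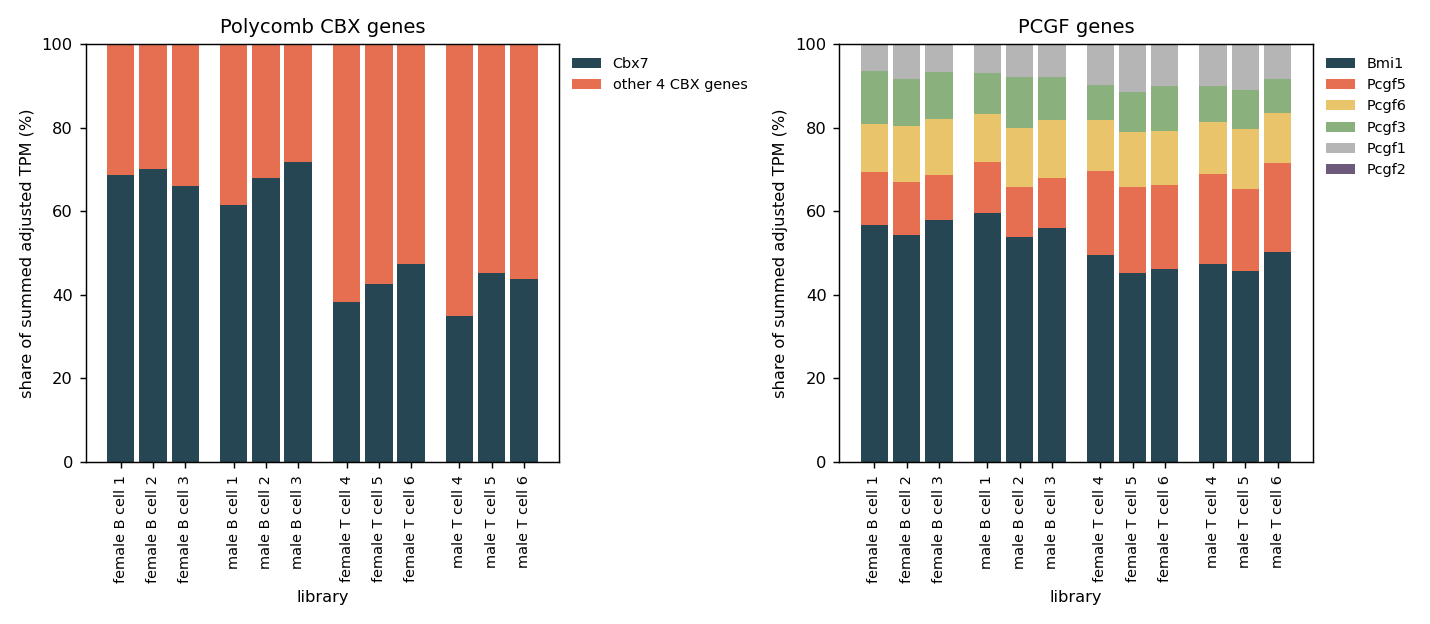
Shares (y axis, percent of summed adjusted TPM) of Cbx7 in the 5 Polycomb CBX genes (left, with the other 4 added together) and of the 6 PCGF genes (right) in each library (x axis). Each bar is 1 library and adds to 100%. The Cbx7 share was 61.5% or more in every B cell library and 47.4% or less in every T cell library, and Pcgf2 was too low to be seen.

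Bmi1 and Rnf2, the core pair of PRC1, were alike in level. Bmi1 (chr2:18677018-18686629, + strand), also called Pcgf4, ranged from 34.6 to 44.0 adjusted TPM in B cells with a median of 38.4, and from 35.5 to 44.9 in T cells with a median of 38.0. Its log2 fold change was −0.00 ± 0.07 (SE; adjusted p = 0.96, limma; 95% interval −0.16 to 0.15), and its sign changed when single libraries were left out. Among the 6 PCGF genes, however, its share was 56.4% ± 2.14 (SD, n = 6) in B cells, above the 47.3% ± 2.096 (SD, n = 6) of T cells, without overlap (exact permutation p = 0.0022, adjusted p = 0.0043). Pcgf5, a partner in variant PRC1, made up 11.997% ± 0.778 of the sum in B cells and 20.5% ± 0.808 in T cells, so that the share of Bmi1 changed while its own level did not pass.

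Rnf2 (chr1:151458004-151500955, − strand), the E3 ligase also called Ring1b, ranged from 38.6 to 49.6 adjusted TPM in B cells with a median of 41.0, and from 40.9 to 51.8 in T cells with a median of 47.5. The log2 fold change was −0.16 ± 0.07 (SE; adjusted p = 0.06, limma; 95% interval −0.32 to −0.00). It passed without male B cell library 1 (−0.21, adjusted p = 0.019) or without male T cell library 5 (−0.21, adjusted p = 0.018). Rnf2 made up 75.2% ± 2.32 (SD, n = 6) of Ring1 plus Rnf2 in B cells, and in T cells 76.7% ± 2.66 (SD, n = 6), a difference that did not pass (exact permutation p = 0.31). Rnf2 was thus the main RING1 gene in both cell types.

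Of the 19 other PRC1 genes, 17 reached 1 adjusted TPM in both cell types, and 12 of these passed, with 5 higher in B and 7 higher in T cells. Their share was 70.6%, beside 73.0% of all genes. Under equal library totals 5 and 3 passed, beside 5087 and 2021 of 13016 genes in these directions. Pcgf2 was near 0 in all libraries and was not tested, and Bcorl1 reached the filter through T cells alone. Kdm2b, which brings variant PRC1 to unmethylated CpG islands, was at 21.9 adjusted TPM in B cells and 10.9 in T cells (log2 fold change 0.94 ± 0.05, SE), and Scmh1 was at 7.18 and 3.58 (0.84 ± 0.08). Cbx2 went the other way, from 1.29 in B cells to 3.59 in T cells (−1.02 ± 0.10). All 3 passed with an adjusted p of at most 1.1e-06 (limma).

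The trithorax genes were higher in B cells, and they also varied most between libraries of one group. Kmt2a (chr9:44803355-44881296, − strand) was at 29.3, 27.2 and 25.6 adjusted TPM in female B cells and at 23.7, 29.9 and 28.9 in male B cells. In T cells it was at 14.7, 15.2 and 23.9 in females and at 11.8, 16.1 and 23.5 in males. Both T cell libraries numbered 6 lay near the lower B cell libraries, and the others were far below. The log2 fold change was 0.66 ± 0.15 (SE; adjusted p = 0.0018, limma), and 0.88 ± 0.09 (adjusted p = 1.2e-05) without those 2 libraries, an alternative added after the values were seen.

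Kmt2d (chr15:98831669-98871204, − strand) was at 24.6, 22.8 and 20.3 adjusted TPM in female B cells and at 18.9, 21.7 and 26.2 in male B cells. In T cells it was at 13.3, 12.05 and 20.3 in females and at 12.8, 13.6 and 23.3 in males. As with Kmt2a, the T cell libraries numbered 6 overlapped B cells. With all libraries the log2 fold change was 0.51 ± 0.16 (SE; adjusted p = 0.011, limma), and 0.74 ± 0.09 (adjusted p = 3.8e-05) without them. With T cell libraries averaged by number the adjusted p was 0.018 for Kmt2d and 0.0031 for Kmt2a (limma).

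The within-group SD on the log2 scale was 0.31 for Kmt2a and 0.32 for Kmt2d, against 0.05 for Ezh1 and 0.19 for Cbx7. The lower and upper bounds deposited beside each value did not overlap in 10 of 12 pairs of libraries of one group for Kmt2a and in 11 of 12 for Kmt2d, and in 0 of 12 for Ezh1. The spread of the trithorax genes between pools was thus wider than these bounds, whose level is not given in the sources used here.

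Kmt2a and Kmt2d have the longest transcripts of the 9 genes, of 16470 and 19823 bases in the annotation. Over genes with a mean of 10 or more adjusted TPM, the T cell libraries numbered 6 stood above those numbered 4 and 5 in a way that moved with length: the median log2 difference was −0.13 for 1803 genes with transcripts under 2000 bases and 0.24 for 72 genes of 12000 bases or more, of which 91.7% were higher. For Kmt2a and Kmt2d that difference was 0.68 and 0.71. The median log2 fold change, B minus T cells, rose over the same bins from −0.28 to 0.15, below the 0.66 and 0.51 of the pair. Summed B cell markers were 2.43 to 4.91 in the libraries numbered 6 and 0.896 to 1.82 in the others, under the 2220 of the lowest B cell library. Summed T cell markers were 1017 to 1052 in the libraries numbered 6 and 1132 to 1194 in those numbered 4 and 5. The part of transcript length in these results was not tested.

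**Figure D4:**
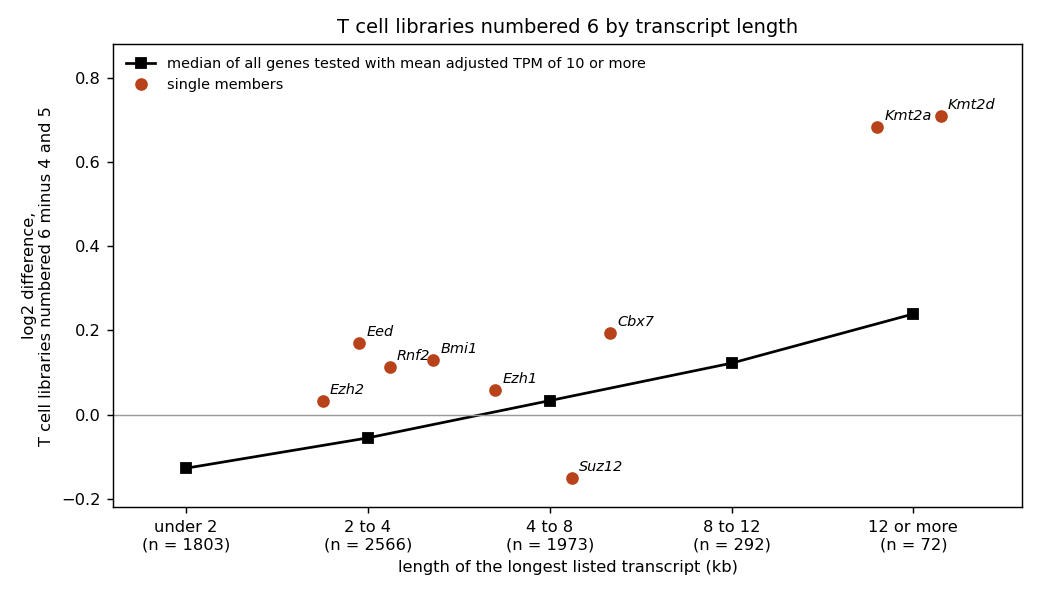
Log2 difference between the T cell libraries numbered 6 and those numbered 4 and 5 (y axis) by length of the longest annotated transcript (x axis, bins in kb). Squares are medians over the genes of a bin, and circles are the 9 genes, set side by side within their bin. The median rose from −0.13 in the shortest bin to 0.24 in the longest, and Kmt2a and Kmt2d lay at 0.68 and 0.71.

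Each trithorax gene was also set against its nearest paralog. Kmt2a made up 59.6% ± 0.855 (SD, n = 6) of Kmt2a plus Kmt2b in B cells, but 52.2% ± 4.86 (SD, n = 6) in T cells (exact permutation p = 0.0022, adjusted p = 0.0043), although the ranges nearly touched at 58.4%. Kmt2d made up 25.2% ± 0.935 (SD, n = 6) of Kmt2c plus Kmt2d in B cells, but 20.7% ± 2.63 (SD, n = 6) in T cells (exact permutation p = 0.0087, adjusted p = 0.01), with overlap. Kmt2c was therefore the more abundant of the enhancer pair in both cell types. Within T cells both shares were highest among libraries numbered 6, and without these the differences were 10.4 and 5.86 percentage points in place of 7.46 and 4.50.

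Partners in the KMT2 complexes and related methyltransferases went in both directions. Among the 16 tested, 10 passed, a share of 62.5% beside 73.0% of all genes. Of these 6 were higher in B and 4 in T cells, against 8 and 1 under equal library totals and 8 and 3 under median-ratio scaling. Calls over all genes were 5087 and 2021 under equal totals, and 4558 and 4502 under median-ratio scaling. Kmt2e was at 37.5 adjusted TPM in B cells and 21.1 in T cells (log2 fold change 0.81 ± 0.11, SE), and Ash1l, which methylates lysine 36 of histone H3, at 40.5 and 26.6 (0.60 ± 0.10). Psip1, which ties KMT2A to chromatin through menin, was at 57.9 in B cells against 104 in T cells (−0.84 ± 0.05), and Ash2l, a core subunit shared by the family, at 20.3 and 26.9 (−0.39 ± 0.05). These 4 passed with an adjusted p of at most 0.00012 (limma), but Ash2l did not pass under equal totals (−0.02, adjusted p = 0.93). Kmt2e and Ash1l were, like Kmt2a, higher in the T cell libraries numbered 6, by 0.46 and 0.37 on the log2 scale.

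All 7 trithorax remodeller genes passed, 6 of them higher in B cells, where 73.0% of all genes passed and 31.4% were called higher in B cells. Arid1b was at 39.7 adjusted TPM in B cells and 21.7 in T cells (log2 fold change 0.84 ± 0.06, SE), and the core subunit Smarcb1 at 28.6 and 16.6 (0.76 ± 0.05). The ATPase gene Smarca2 was the exception, at 28.5 in B cells and 43.8 in T cells (−0.60 ± 0.05, but −0.23 with an adjusted p of 0.32 under equal library totals), whereas the alternative ATPase gene Smarca4 was 0.30 higher in B cells. Among 5 genes of the H2A deubiquitinase and the H3K27 demethylases, 1 passed, namely Asxl1 (−0.74 ± 0.06), higher in T cells. Under equal totals Asxl1 did not pass (−0.38, adjusted p = 0.086, limma). Instead 1 other of the 5 passed there, higher in B cells, beside 5087 of 13016 genes in that direction. Over the 5 lists together 34 of 51 genes that reached 1 adjusted TPM in both cell types passed (66.7%), 18 higher in B and 16 in T cells. The 73.0% of all genes includes genes that reached the filter through 1 cell type alone. With such genes kept, 37 of 54 list genes passed (68.5%). Under equal library totals 26 of the 51 passed, 21 and 5, beside 7108 of 13016 genes, 5087 and 2021.

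**Figure D5:**
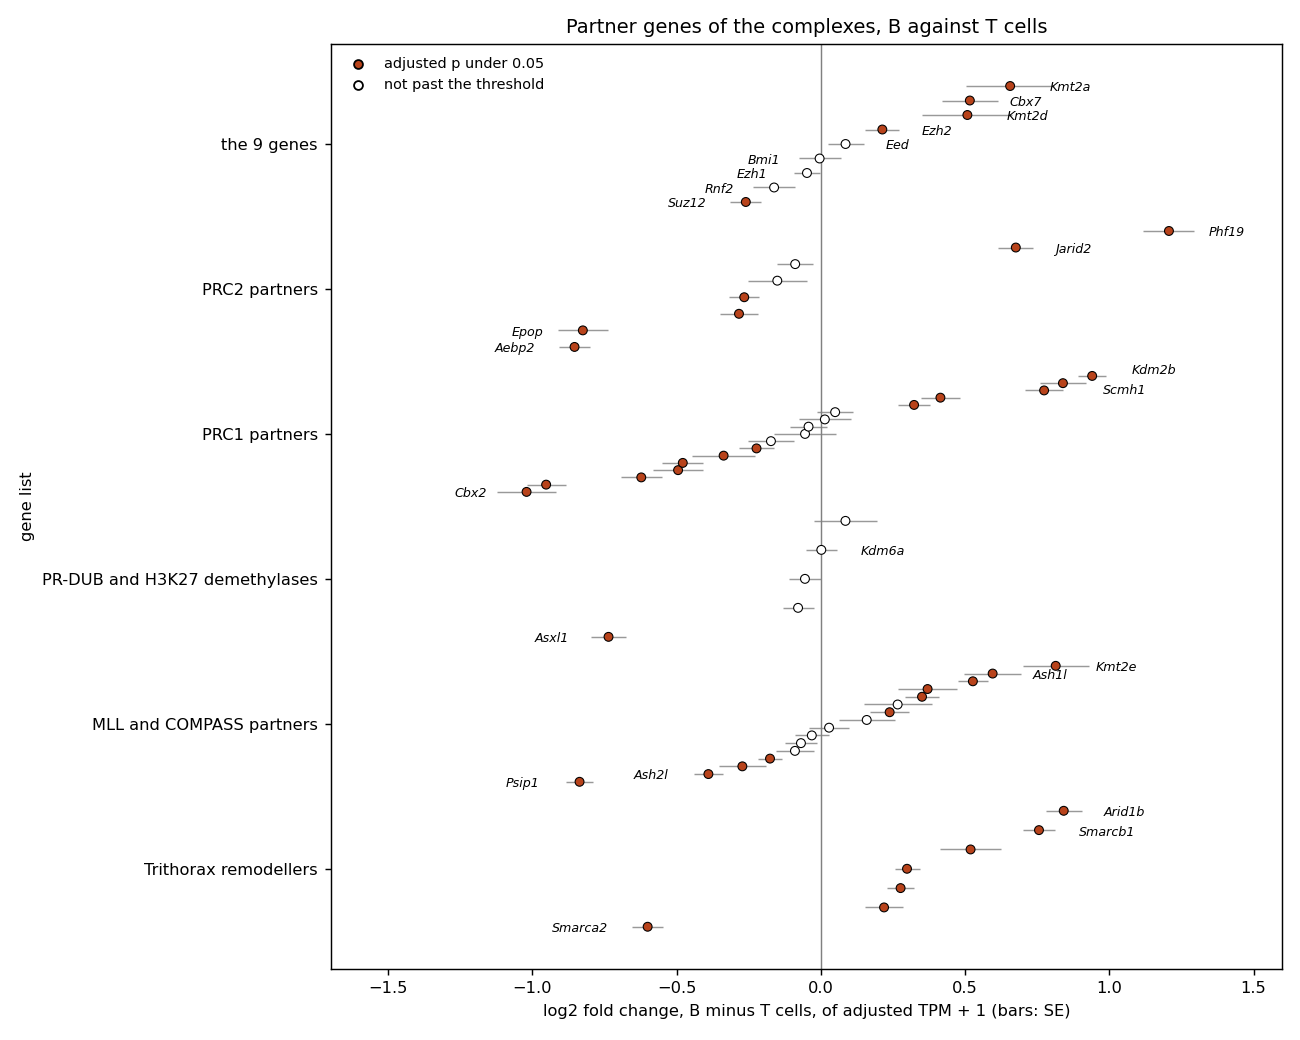
Log2 fold change of adjusted TPM + 1, B minus T cells (x axis), of the 9 genes and of 5 lists of partner genes (y axis), with 1 PRC1 partner left out. Points are genes with their standard errors, filled where the adjusted p was under 0.05, and Phf19, Epop and Bcorl1 are descriptions. All 7 remodellers passed and 6 lay above 0, while among the PRC1 partners plotted Cbx2 lay at −1.02 and Kdm2b at 0.94.

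Genes that Polycomb is known to silence were below 1 adjusted TPM in most cases. Of 7 classic targets, Hoxb4 alone reached the filter, at 1.201 to 1.399 adjusted TPM in B cells and 0.338 to 0.530 in T cells. It entered through B cells alone, so that its log2 fold change of 0.69 is given as a description. Cdkn2a, the senescence locus best known as a target of Bmi1, was at most 0.00118 in any library.

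The second question of the design is whether females and males differ. Of the 9 genes, 0 passed in B cells and 0 in T cells (limma), and 0 had an unadjusted p under 0.05, while 0.144% and 0.104% of all genes passed. No gene of the 9 had libraries of females and males apart in either cell type, against 7.2% of all genes in B cells and 8.49% in T cells. Log2 fold changes, female minus male, ran from −0.12 for Rnf2 to 0.07 for Ezh2 in B cells and from −0.10 for Kmt2d to 0.08 for Ezh1 in T cells. The 95% interval for Ezh1 in T cells was −0.06 to 0.22, and for Kmt2d it was −0.58 to 0.38, so that the bounds on a sex difference were tight for the former and wide for the latter. The difference between the sex effects of B and T cells passed for 0 of the 9 genes, and for 0.0% of all genes.

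Between the sexes 1 gene of the partner lists differed. Kdm6a, an X-linked demethylase of the PRC2 mark, was at 43.0, 40.7 and 39.5 adjusted TPM in female B cells and at 25.9, 23.8 and 26.9 in males. In T cells it was at 38.7, 41.3 and 42.0 in females and at 23.8, 26.2 and 27.2 in males. Females were above males in every library, and B and T cells had the same pattern. The log2 fold change, female minus male, was 0.67 ± 0.07 (SE; adjusted p = 0.002, limma) in B cells and 0.64 ± 0.07 (adjusted p = 0.0025) in T cells. Fitted on each cell type alone, the adjusted p was 0.081 in B cells, and 0.071 in T cells, or 0.12 with the replicate number as a block, at the same size of effect.

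Genes whose levels followed each member most closely over the 12 libraries were listed as a description, since the points share the contrast of cell types. Kmt2a was followed by Ino80d (Pearson r = 0.99), Kmt2d by Ago2 (0.97), Suz12 by Hilpda (0.98), Cbx7 by Mndal (0.97) and Ezh2 by Eml3 (0.97). The best match was weaker for genes that hardly moved, with Mdn1 for Ezh1 (0.86), Cmtr2 for Bmi1 (0.89), Tgfbr1 for Eed (0.92) and Ciao1 for Rnf2 (0.93). Among the 9 genes themselves, Kmt2a and Kmt2d had r = 0.94, Kmt2a and Cbx7 0.91, and Kmt2a and Suz12 −0.90.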

How the data were processed

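RNA was depleted of ribosomal RNA and sequenced with strand kept, per the labels. Trim Galore, FastQC, STAR and mm10 are named in the submitters' processing notes, without versions. The values deposited by the authors are a signal called adjusted TPM, with a lower and an upper bound for each library. How transcripts were quantified, how values were adjusted and what level the bounds have is not given in the sources used here. Other label fields name genomic DNA, but the values were treated as RNA expression. Depth is unknown, and ERCC spike-ins were not used here.

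Values were tested as log2(adjusted TPM + 1) with limma 3.58.1 in R 4.3.3 (mean-variance trend, 4 group means, Benjamini-Hochberg adjustment over all genes), on 12520 genes with at least 1 adjusted TPM in at least 3 libraries. Fold changes on this scale understate changes of low genes. Intervals are 95% limits from the moderated t distribution. Paralog shares were compared with exact two-sided permutation tests. The fit was tested on simulated data. Coordinates are from GENCODE M21 (GRCm38), the build called mm10.

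Named were the 9 genes, the 2 largest called changes in each direction per partner list, any list gene called between sexes, tested classic targets and cell cycle genes, and the best correlated genes. One PRC1 partner that this rule names is not reported here. Others named (Smarca4, Pcgf5, Ring1, Kmt2b, Kmt2c, Cdkn2a, Meis1, Hoxa7 and Pcgf2) were chosen after their values were seen. So were Sdc1, Lyz2 and Hbb-bs among the markers of other cells. The 9 genes and the lists were chosen with earlier results of these data known.

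Replicate numbers of T cells paired the sexes: deviations from group means correlated at 0.72, 0.55 and 0.52 between libraries of the same number, from the data and not from a stated litter or day. The alternatives were other pseudocounts, no filter, other scalings, no trend, single cell types, the block, left-out libraries and T cell libraries averaged by number.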

Additional observations from a re-analysis of the deposited data

Results flagged for a closer look

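Eed in B cells had 1 library apart from the others, female B cell library 1, at 25.7 adjusted TPM, where the other 5 were at 28.7 to 30.2. The share of Kmt2d in Kmt2c plus Kmt2d in T cells had 1 library apart, male T cell library 6, at 25.7%, where the mean of the 6 was 20.7%. Both were picked by Dixon's test at its 95% critical value, applied to 30 groups of 6 libraries, and chance alone picks about 1 in 20 such groups.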

How the results depend on the processing

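The counts of the 9 genes past the threshold were 5 to 6 between B and T cells under every alternative run, with 5 higher in B and 0 in T cells under equal library totals, where Suz12 lost and Eed gained a call. Equal library totals turned Ezh1 (0.32), Suz12 (0.12), Bmi1 (0.37) and Rnf2 (0.21) toward B cells, median-ratio scaling turned Ezh1 (0.035) and Bmi1 (0.080), and leaving out both T cell libraries numbered 6 turned Bmi1 (0.039), which ran from −0.051 to 0.047 with 1 library left out. Of these only Suz12 had passed the test. With females or males alone, shares could not pass (smallest exact p 0.1), at differences of 6.17 and 2.81 points for Ezh2, 9.31 and 8.76 for Bmi1, 25.5 and 25.9 for Cbx7, 6.46 and 8.47 for Kmt2a, and 6.04 and 2.96 for Kmt2d.

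Counts over all genes moved more. Without a filter 24591 genes passed between B and T cells, 10985 and 10607 between sexes in B and T cells, and 11201 for the difference. Equal totals gave 44, 26 and 20 in the same order of sex contrasts. Other settings gave 24 in T cells and 1 for the difference (pseudocount 0.1), 3 for the difference (no trend), 5 in B cells (that cell type alone), and 7 in T cells and 1 for the difference (without both libraries numbered 6). Leaving out 1 library gave 11 to 18 in B cells, against 7 to 14 in T cells, and 0 to 1 for the difference, the lowest without female B cell library 3 and without female T cell libraries 5 or 6. Partner list genes past the threshold between sexes, 1 in each cell type, were 0 under equal totals and with that cell type alone, and without a filter 2 in T cells and 1 for the difference.

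With the replicate block, 5 genes passed between sexes in each cell type, among them 0 partner genes. In B cells same-numbered libraries correlated at −0.17, −0.04 and −0.34, so the numbers do not pair them. The block changed no call of the 9 genes. No paired analysis was possible between B and T cells because they share no replicate number. The cause of these changes was not tested. Precision is limited by 3 pools a group, and Kmt2a and Kmt2d rest on T cell libraries that disagree.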
